A study of Mus musculus with 9 samples.

Results

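The 32 macrophage and leukocyte genes are a list of named genes of macrophages, other myeloid cells and lymphocytes, found by their symbols among the 55453 genes counted in each of 9 RNA-seq libraries. The RNA came from the whole pancreas of e18.5 mouse embryos. Membership was set by symbol, without a threshold on measured values, although the list was drawn up with earlier results of these data known. All 32 were counted, and all 32 were among the 19166 genes that passed the filter on low counts. The libraries form 3 groups of 3 embryos, labelled Pdx1:Cre;Grg3Grg4, Pdx1:Cre;Grg3 and Pdx1:Cre, the last being the control. All groups carried Pdx1:Cre, a Cre recombinase under the promoter of Pdx1, a transcription factor of the pancreatic epithelium, and the strain of every library was given as mixed C57BL6. Grg3 and Grg4 are Groucho co-repressors encoded by Tle3 and Tle4, and the sources used here do not give the form and zygosity of their alleles.

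Macrophages settle in the pancreas before birth from embryonic precursors, depend on signalling through the receptor CSF1R, and clear dying cells and debris with complement, scavenger and Fc receptors. Neutrophils, monocytes and lymphocytes reach the organ with the blood, and the spleen, rich in all of them, develops next to the dorsal pancreas. Pdx1 marks the epithelial lineage, from which leukocytes do not arise. In RNA from a whole organ, fewer cells of a type and less RNA per cell cannot be told apart.

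Gene counts summed to 46817453 to 62744499 per library, of which 25866 to 55935 fell on the 32 genes. Levels are given as CPM, counts scaled to 1e6 gene counts per library after correction for composition between libraries, and values in threes are replicates 1, 2 and 3. Tle3, the gene of the targeted Grg3, went against the labels and was higher in the libraries labelled mutant, at 131, 126 and 146 CPM in the libraries labelled Grg3Grg4, 148, 167 and 145 CPM in those labelled Grg3, and 63.1, 67.7 and 63.6 CPM in the controls, so every direction below is between libraries as labelled. Tle4 had 10.7, 15.5 and 8.63 CPM in the libraries labelled Grg3Grg4, 9.83, 13.02 and 13.8 CPM in those labelled Grg3, and 7.84, 7.79 and 7.68 CPM in the controls, and was thus not lower where Grg4 is named as targeted. A transcript that has lost some exons is still counted here. By Xist and Ddx3y, all 3 libraries labelled Grg3Grg4 were male, against 1 of 3 in each of the other groups. Muscle genes were high in replicate 2 of the libraries labelled Grg3Grg4, as given with the other cell types further on. Of the 32 genes, 11 overlap another annotated gene, whose reads could be shared with them.

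The macrophage programme was present in every library. Per kilobase of annotated exon, C1qa, a chain of complement C1q made by tissue macrophages, had the highest mean level of the 32, at 97.7 to 175 CPM per kb over the 9 libraries. The lysozyme gene Lyz2 followed at 19.4 to 83.9 CPM per kb, and the calgranulin gene S100a9 at 2.89 to 121 CPM per kb, with ranges that overlapped each other and, for S100a9, that of C1qa. Tyrobp, an adaptor of activating receptors, had 9.52 to 21.6 CPM per kb, the growth factor receptor Csf1r 5.79 to 10.96 CPM per kb, and the F4/80 gene Adgre1, a defining macrophage marker, 1.96 to 4.30 CPM per kb. The integrin chain Itgam and the leukocyte phosphatase Ptprc had the lowest means, at 0.190 to 0.725 and 0.235 to 0.763 CPM per kb, and these ranges overlapped. The length joins all annotated exons of a gene, and that of Ptprc, 18313 bases, was the longest of the 32, so its rank depends on this length. Before division by length Ptprc had 4.31 to 14.0 CPM and Itgam 0.955 to 3.64 CPM. The plot of levels per exon length gives each library.

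**Figure D1:**
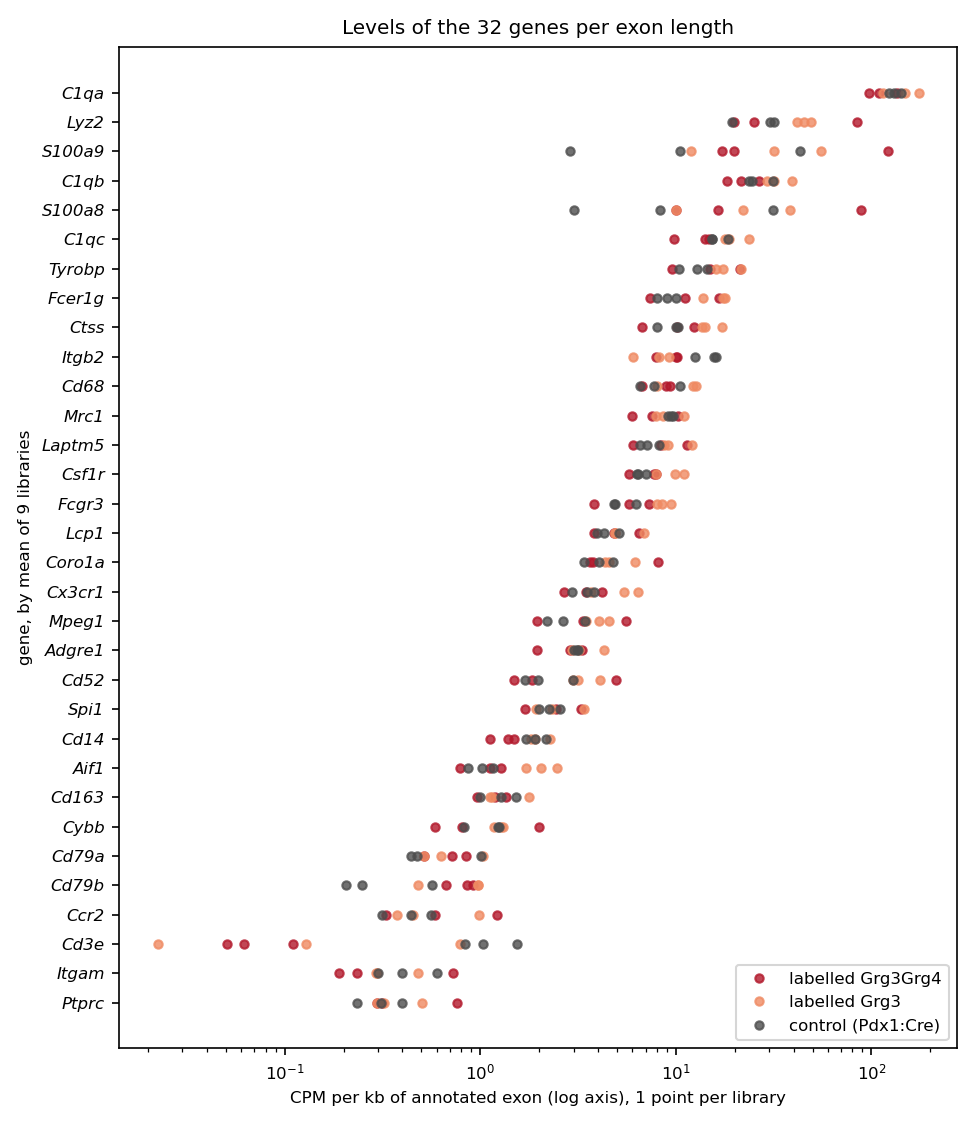
Levels of the 32 genes as CPM per kilobase of annotated exon on a log axis, 1 point per library, coloured by label, with genes ordered from top to bottom by their mean over 9 libraries. C1qa sits at 97.7 to 175 CPM per kb, Ptprc at 0.235 to 0.763 CPM per kb, and Cd3e spreads from 0.0224 to 1.54 CPM per kb.

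The comparison of the libraries labelled Grg3Grg4 with control asks what differs when both Groucho genes are targeted. No macrophage or leukocyte gene changed past the test: 0 of 32 had an edgeR adjusted p under 0.05, where 2.14% of all genes tested did. At an unadjusted p under 0.05, 4 of 32 passed (12.5%, against 20.2% of all genes), 1 of them higher (Cd79b) and 3 lower (Cd14, Itgb2 and Cd3e), and DESeq2 called 2 (Itgb2 and Cd3e; 6.25%, against 8.16% of all genes it gave an adjusted p). The 3 libraries of each label did not overlap for 5 genes (15.6%, against 29.1% of all genes). The median log2 change of the 32 was 0.09, against 0.01 over all genes tested, with 22 of 32 above 0 where 51.9% of all genes were.

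The comparison of the libraries labelled Grg3 with control asks what differs when Grg3 alone is targeted. One direction predominated among values that did not pass: 28 of 32 genes had a log2 change above 0 (87.5%, against 52.5% of all genes), with a median of 0.38 against 0.02 over all genes. The count leaned in part on 1 library: without replicate 2 of the libraries labelled Grg3, 22 of 32 were above 0, with a median of 0.28. Without any other single library, 27 or 28 were above 0. A single gene changed past the test, the integrin chain Itgb2, which fell, so that 1 of 32 was called where 1.4% of all genes were (0.694% lower). At an unadjusted p under 0.05, 8 of 32 passed (25.0%, against 19.1% of all genes), 7 of them higher, a direction in which 9.61% of all genes passed. The libraries did not overlap for 12 genes (37.5%, against 24.6% of all genes). Of these, 10 were higher in the libraries labelled Grg3 (31.2%, against 12.6% of all genes) and 2 were lower.

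Between the libraries labelled Grg3Grg4 and those labelled Grg3, 0 of 32 genes passed, where 0.188% of all genes did. At an unadjusted p under 0.05, 8 passed (25.0%, against 17.3% of all genes), all 8 lower in the libraries labelled Grg3Grg4, where 7.7% of all genes passed as lower, and DESeq2 called 3 of these (Aif1, C1qb and C1qc; 9.38%, against 5.81% of all genes). The libraries did not overlap for 6 genes (18.8%, against 21.1% of all genes), again all lower in the libraries labelled Grg3Grg4, as were 9.3% of all genes. The median log2 change was -0.22, with 8 of 32 above 0 where 49.7% of all genes were. This value rested on single libraries: it was -0.58 without replicate 1 of the libraries labelled Grg3Grg4 and -0.03 without replicate 2. The median of the libraries labelled Grg3Grg4 against control was -0.14 without their replicate 1 and 0.28 without their replicate 2.

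When the 6 libraries labelled mutant were set against the 3 controls in 1 contrast, edgeR called 1 of 32 genes, again Itgb2, where it called 2.07% of all genes (1.19% lower). DESeq2 called Itgb2 and Cd3e lower and Cd79b higher (9.38%, against 8.33% of all genes), and limma's voom called Itgb2 and Cd3e. The 6 and the 3 libraries did not overlap for Itgb2 and Cd3e, both lower in the 6 (6.25%, against 10.7% of all genes, and 5.75% lower). The comparisons against control share their control libraries, so their values are not independent of each other. The plot of log2 changes gives both comparisons for each gene.

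**Figure D2:**
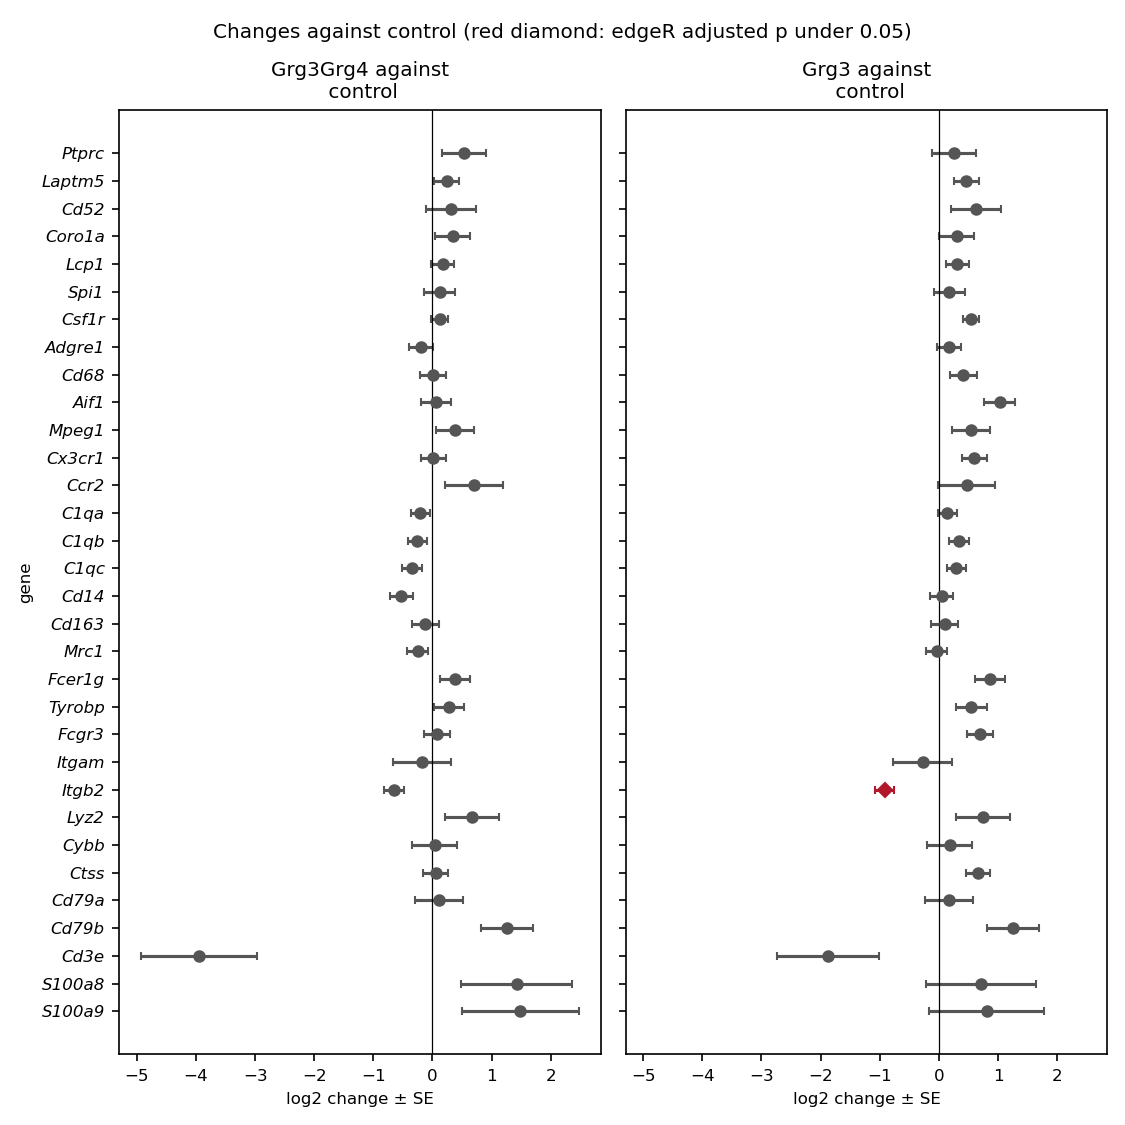
Log2 change with its SE (edgeR) for each of the 32 genes, on the left for the libraries labelled Grg3Grg4 against control and on the right for those labelled Grg3 against control, on 1 shared scale. The red diamond marks the 1 gene called, Itgb2 at -0.92 in the libraries labelled Grg3. Cd3e lies farthest to the left in both panels.

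The integrin genes Itgb2 and Itgam encode the beta and alpha chains of Mac-1 (CD18 and CD11b), an adhesion receptor of neutrophils, monocytes and macrophages, and the Itgb2 chain also pairs with other leukocyte alpha chains. Itgb2 (chromosome 10, 77530252 to 77565708, GRCm38) had 30.6, 24.2 and 30.9 CPM in the libraries labelled Grg3Grg4, 25.0, 18.4 and 28.1 CPM in those labelled Grg3, and 38.2, 47.8 and 48.9 CPM in the controls. All 6 libraries labelled mutant lay below all 3 controls. This ran against most of the list, of which 28 of 32 genes were above 0 in the libraries labelled Grg3 against control. The library lowest in Itgb2, replicate 2 of those labelled Grg3, was the highest of the 9 for 15 of the 32 genes. The means were 28.6 ± 3.75 CPM in the libraries labelled Grg3Grg4, 23.8 ± 4.95 CPM in those labelled Grg3 and 45.0 ± 5.90 CPM in the controls (SD, n = 3 each).

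Itgb2 fell by 0.92 (SE 0.17) on the log2 scale in the libraries labelled Grg3 against control (edgeR adjusted p = 0.0322). Over the 6 libraries labelled mutant it fell by 0.78 (SE 0.14; edgeR adjusted p = 0.0221), a call lost without control replicate 2 (0.147) or 3 (0.146) and with embryo sex as a term (0.085). Its change of -0.65 (SE 0.16) in the libraries labelled Grg3Grg4 did not pass (edgeR adjusted p = 0.0713). The call in the libraries labelled Grg3 was kept in 13 of 18 alternatives, at log2 changes of -1.05 to -0.76. It was lost with embryo sex as a term (edgeR adjusted p = 0.0531), without control replicate 2 (0.141) or 3 (0.157), without replicate 1 of the libraries labelled Grg3 (0.0901) and without replicate 1 of those labelled Grg3Grg4 (0.0519). Its partner Itgam had the same order of group means, but its libraries were not set apart by label, at 3.64, 0.955 and 1.18 CPM in the libraries labelled Grg3Grg4, 2.41, 1.496 and 1.479 CPM in those labelled Grg3, and 1.502, 2.01 and 3.01 CPM in the controls. These ranges overlapped, and the log2 changes of Itgam against control were -0.18 and -0.28 (edgeR adjusted p = 0.879 and 0.812). Per kilobase of exon, Itgb2 stood at 13.9 to 42.9 times the level of Itgam. The alpha chain gene Itgax, of another list, had a mean of 0.102 CPM per kb over the 9 libraries, against 10.6 for Itgb2. The levels of other alpha chains were not examined.

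**Figure D3:**
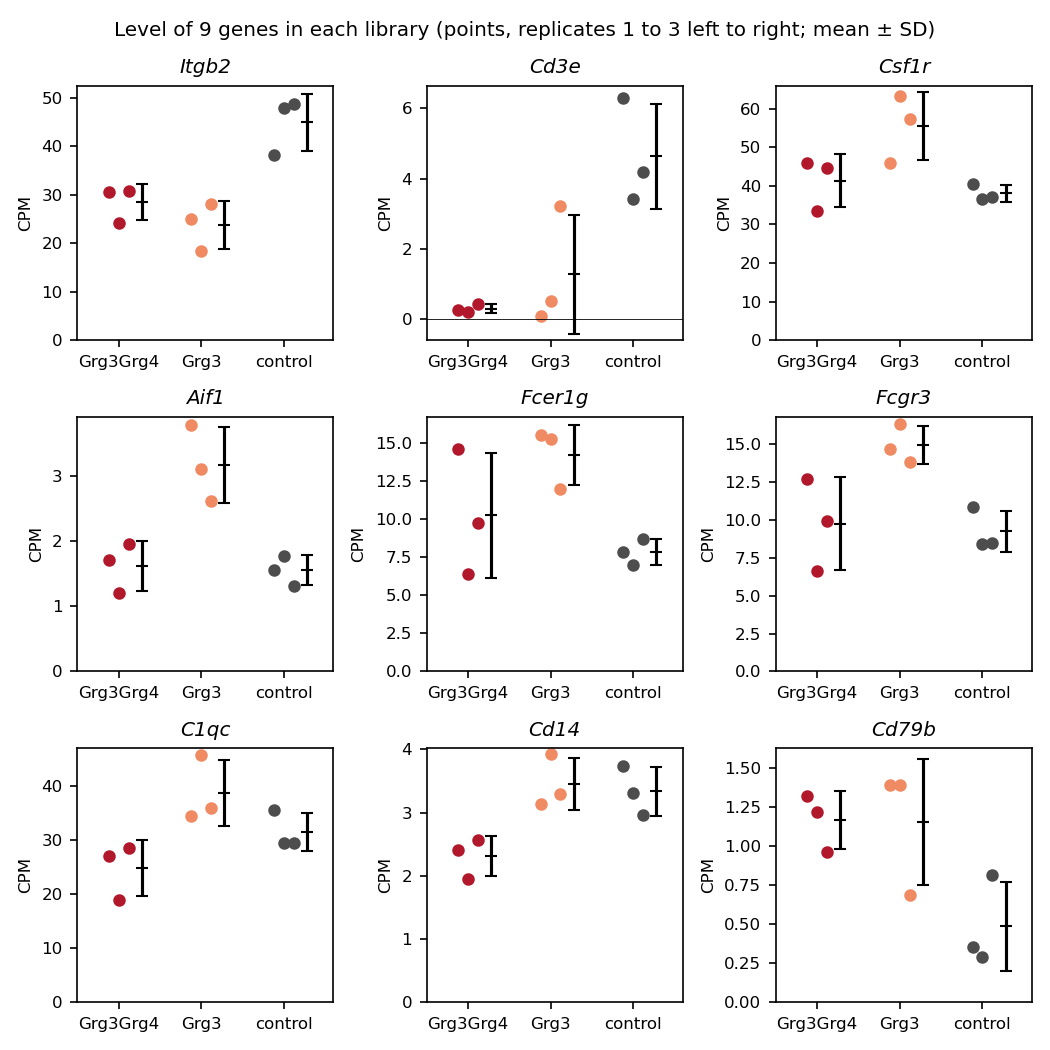
CPM of 9 genes in each library (points, replicates 1 to 3 from left to right within a label) with the mean and SD of the 3 libraries beside them. Itgb2 and Cd3e have all 6 libraries labelled mutant below the 3 controls, and Aif1, Fcer1g, Fcgr3 and Csf1r have all 3 libraries labelled Grg3 above the 3 controls.

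Among lymphoid receptor chains, Cd3e encodes the epsilon chain of the CD3 complex, which carries the signal of the T cell receptor. Cd3e (chromosome 9, 44998740 to 45009627) had 14, 14 and 22 counts in the libraries labelled Grg3Grg4, 5, 38 and 159 in those labelled Grg3, and 302, 163 and 191 in the controls. In CPM these were 0.252, 0.206 and 0.449 in the libraries labelled Grg3Grg4, 0.0914, 0.521 and 3.22 in those labelled Grg3, and 6.30, 3.41 and 4.20 in the controls. All 6 libraries labelled mutant lay below the controls, but replicate 3 of those labelled Grg3 came close to the lowest control.

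The difference did not pass the test, with log2 changes of -3.95 (SE 0.97; edgeR adjusted p = 0.0675) in the libraries labelled Grg3Grg4 and -1.87 (SE 0.87; edgeR adjusted p = 0.277) in those labelled Grg3. Without replicate 3 of the libraries labelled Grg3 their change against control was -3.88 and passed (edgeR adjusted p = 0.0404), and that of the libraries labelled Grg3Grg4 against those labelled Grg3 was -0.07, where it was -2.08 with all libraries. The change in the libraries labelled Grg3Grg4 against control was called in 6 of 18 alternatives, with adjusted p from 0.00334 to 0.202. The other CD3 chains did not share the pattern. Cd3d, the delta chain, had 1, 1 and 0 counts in the libraries labelled Grg3Grg4, 5, 10 and 0 in those labelled Grg3, and 0, 0 and 1 in the controls. Cd3g, the gamma chain, had 2, 0 and 0 counts in the libraries labelled Grg3Grg4, 2, 13 and 8 in those labelled Grg3, and 1, 5 and 3 in the controls. So the 302, 163 and 191 counts of Cd3e in the controls came with at most 1 count of Cd3d and 5 of Cd3g, although the 3 genes lie side by side (Cd3g at 44969572 to 44980431 and Cd3d at 44981786 to 44987339). Tle3 lies on the same chromosome, at 61372366 to 61418497. In GENCODE release 21 the annotated genes Gm48719 and Gm48720 overlap Cd3e, and the sources used here do not say whether strand was used in counting. The T cell receptor constant gene Trac, of another list, was highest in replicate 2 of the libraries labelled Grg3 (6.59 CPM) and between 0.146 and 1.13 CPM in the other 8 libraries.

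The promoter of Cd3e in RefSeq (GRCm38.p6, minus strand, chr9:45009562-45009861) is shown because this gene had the largest difference of the 32 between labels. It runs from 250 bases before to 50 bases after an annotated start, and capitals mark the letters GAGGAA on either strand, here read as TTCCTC. That hexamer is part of the sequence bound by PU.1, the product of Spi1.
Cd3e: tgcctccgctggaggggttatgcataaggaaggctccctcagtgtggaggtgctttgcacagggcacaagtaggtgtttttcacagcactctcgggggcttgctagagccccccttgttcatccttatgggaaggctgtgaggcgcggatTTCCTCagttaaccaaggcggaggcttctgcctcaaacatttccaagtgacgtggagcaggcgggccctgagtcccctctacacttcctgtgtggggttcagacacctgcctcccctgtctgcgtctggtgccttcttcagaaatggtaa
The hexamer was found in 15 of 27 promoters of 23 genes of the list that the RefSeq table holds (55.6%), against 28.3% of all 32851 promoters in the table. The letters TTGCNNAA, a pattern related to C/EBP sites, were found in 4 of 27 (14.8%, against 10.8%), with no overlap between the 2 motifs. A match describes these letters only. Cd52, Spi1, Csf1r, Adgre1, C1qa, Cd14, Tyrobp, Itgb2 and Cd79b are not in the table.

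Cd79a and Cd79b encode the signalling chains of the B cell receptor. Cd79b had 73, 83 and 47 counts in the libraries labelled Grg3Grg4, 76, 101 and 34 in those labelled Grg3, and 17, 14 and 37 in the controls. The libraries labelled Grg3Grg4 lay above the controls, and those labelled Grg3 overlapped them at replicate 3. Its log2 changes of 1.26 (SE 0.44) and 1.25 (SE 0.44) did not pass (edgeR adjusted p = 0.15 and 0.164). Cd79a had 1.23, 1.04 and 0.755 CPM in the libraries labelled Grg3Grg4, 1.498, 0.919 and 0.750 CPM in those labelled Grg3, and 0.647, 0.691 and 1.47 CPM in the controls, with ranges that overlapped.

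Spi1 encodes PU.1, the transcription factor that sets the myeloid lineage, and Csf1r the receptor for the growth factors CSF1 and IL-34. Csf1r had 46.0, 33.5 and 44.7 CPM in the libraries labelled Grg3Grg4, 45.8, 63.3 and 57.2 CPM in those labelled Grg3, and 40.4, 36.5 and 37.1 CPM in the controls. Each library labelled Grg3 lay above each control, and the libraries labelled Grg3Grg4 overlapped both other groups. The log2 change of 0.54 (SE 0.14) in the libraries labelled Grg3 did not pass (edgeR adjusted p = 0.0904), nor did the 0.12 (SE 0.14) in those labelled Grg3Grg4 (edgeR adjusted p = 0.683). Spi1 had 8.81, 4.57 and 6.57 CPM in the libraries labelled Grg3Grg4, 6.28, 9.17 and 5.21 CPM in those labelled Grg3, and 6.88, 5.38 and 6.03 CPM in the controls, with log2 changes of 0.12 and 0.18 and groups that overlapped.

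The ligands of this receptor were in a separate list of 16 macrophage growth factors and chemokines, of which 11 were tested. By edgeR 0 of these passed in either mutant label against control, where 2.14% and 1.4% of all genes did. Over the 6 libraries labelled mutant 1 passed, Il34 (9.09%, against 2.07% of all genes). At an unadjusted p under 0.05, 5 of the 11 passed in the libraries labelled Grg3Grg4, all lower (45.5%, against 20.2% of all genes), and 4 in those labelled Grg3, 3 lower and 1 higher (36.4%, against 19.1% of all genes). DESeq2 called Il34 and the monocyte chemokine Ccl2 lower in the libraries labelled Grg3Grg4 (18.2%, against 8.16% of all genes). In those labelled Grg3 it called Il34 lower (9.09%, against 8% of all genes). Il34 had 6.76, 5.38 and 7.48 CPM in the libraries labelled Grg3Grg4, 5.06, 5.57 and 7.70 CPM in those labelled Grg3, and 10.8, 9.86 and 11.9 CPM in the controls. All 6 libraries labelled mutant lay below the 3 controls. Il34 fell by 0.78 (SE 0.16) on the log2 scale over the 6 (edgeR adjusted p = 0.0375), a call kept in 11 of 17 alternatives and lost, among others, without any 1 control and with embryo sex as a term. Its changes of -0.73 and -0.83 in the single labels did not pass (edgeR adjusted p = 0.0719 and 0.0608). Csf1, the other ligand, had 27.9, 21.5 and 26.4 CPM in the libraries labelled Grg3Grg4, 26.6, 34.5 and 27.8 CPM in those labelled Grg3, and 29.3, 28.3 and 34.1 CPM in the controls. The libraries labelled Grg3Grg4 lay below the controls and those labelled Grg3 overlapped them, and the log2 changes of Csf1 were -0.28 and -0.04 (edgeR adjusted p = 0.279 and 0.894). Gm15894 and Gm15895 overlap Il34 in the annotation.

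Adgre1 (F4/80), Cd68, Aif1 (IBA1) and Mpeg1 (perforin-2) are used as markers of macrophages. Aif1, an actin-binding protein, had 1.71, 1.20 and 1.96 CPM in the libraries labelled Grg3Grg4, 3.78, 3.11 and 2.61 CPM in those labelled Grg3, and 1.56, 1.78 and 1.32 CPM in the controls. Each library labelled Grg3 lay above all 6 others, and the other groups overlapped. The log2 change of 1.03 (SE 0.26) in the libraries labelled Grg3 did not pass (edgeR adjusted p = 0.0806), nor did the -0.97 (SE 0.26) of the libraries labelled Grg3Grg4 against those labelled Grg3 (edgeR adjusted p = 0.119). Mpeg1 had 24.0, 8.45 and 14.5 CPM in the libraries labelled Grg3Grg4, 14.963, 19.7 and 17.6 CPM in those labelled Grg3, and 11.5, 9.48 and 14.957 CPM in the controls. The lowest library labelled Grg3 was barely above the highest control, and the libraries labelled Grg3Grg4 spread across the whole range. Adgre1 had 9.28, 6.33 and 10.7 CPM in the libraries labelled Grg3Grg4, 9.54, 13.9 and 10.4 CPM in those labelled Grg3, and 10.2, 9.74 and 10.1 CPM in the controls, which lay close together. Cd68, a lysosomal membrane protein, had 8.45 to 11.8 CPM in the libraries labelled Grg3Grg4, 10.03 to 15.96 CPM in those labelled Grg3 and 8.20 to 13.2 CPM in the controls. For Adgre1 and Cd68 all groups overlapped.

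The chemokine receptors separate resident macrophages, rich in Cx3cr1, from incoming monocytes, rich in Ccr2. Cx3cr1 had 19.0, 12.1 and 15.6 CPM in the libraries labelled Grg3Grg4, 16.6, 28.9 and 24.5 CPM in those labelled Grg3, and 17.2, 13.2 and 15.8 CPM in the controls. Replicates 2 and 3 of the libraries labelled Grg3 were above all others and replicate 1 fell inside the control range. Its log2 change there was 0.60 (SE 0.22; edgeR adjusted p = 0.172). Ccr2 had 8.24, 2.23 and 3.98 CPM in the libraries labelled Grg3Grg4, 2.54, 6.63 and 3.08 CPM in those labelled Grg3, and 3.78, 2.11 and 2.99 CPM in the controls. One library of each mutant label was high in Ccr2 and the others lay within or close to the control range. Read counts of Cx3cr1 are uncertain, since its annotated span overlaps those of several other genes.

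C1qa, C1qb and C1qc encode the chains of complement C1q and lie next to each other on chromosome 4, C1qb at 136880129 to 136886187, C1qc at 136889804 to 136893065 and C1qa at 136895917 to 136898803. C1qb had 23.5, 19.9 and 29.1 CPM in the libraries labelled Grg3Grg4, 31.99, 42.9 and 34.6 CPM in those labelled Grg3, and 33.98, 25.8 and 26.8 CPM in the controls. C1qc had 27.2, 18.9 and 28.7 CPM in the libraries labelled Grg3Grg4, 34.6, 45.8 and 36.0 CPM in those labelled Grg3, and 35.6, 29.6 and 29.6 CPM in the controls. For both genes the libraries labelled Grg3Grg4 lay below all those labelled Grg3, and for C1qc also below all controls.

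Against the libraries labelled Grg3, those labelled Grg3Grg4 had log2 changes of -0.60 (SE 0.17) for C1qb and -0.64 (SE 0.17) for C1qc, which did not pass (edgeR adjusted p = 0.131 and 0.119). Against control the changes in the libraries labelled Grg3Grg4 were -0.26 and -0.34 (edgeR adjusted p = 0.426 and 0.28). C1qa had 141, 102 and 114 CPM in the libraries labelled Grg3Grg4, 154, 119 and 182 CPM in those labelled Grg3, and 147, 128 and 136 CPM in the controls, with groups that overlapped. C1qb and C1qc kept nearly 1 ratio: per kilobase of exon C1qc stood at 0.536 to 0.651 times C1qb in the 9 libraries. C1qa stood at 2.91 to 6.26 times C1qb, lowest in replicate 2 of the libraries labelled Grg3, where C1qb and C1qc were highest. The promoters of C1qb (minus strand, chr4:136886151-136886450) and C1qc (minus strand, chr4:136892865-136893164) are shown as those of the pair that moved together, with capitals marking GAGGAA on either strand.
C1qb: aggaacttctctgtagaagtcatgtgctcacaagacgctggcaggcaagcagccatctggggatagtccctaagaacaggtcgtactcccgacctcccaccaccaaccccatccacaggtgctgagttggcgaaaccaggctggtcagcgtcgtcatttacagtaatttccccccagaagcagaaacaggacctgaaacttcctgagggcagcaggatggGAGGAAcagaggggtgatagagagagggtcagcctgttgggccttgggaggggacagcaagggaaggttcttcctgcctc
C1qc: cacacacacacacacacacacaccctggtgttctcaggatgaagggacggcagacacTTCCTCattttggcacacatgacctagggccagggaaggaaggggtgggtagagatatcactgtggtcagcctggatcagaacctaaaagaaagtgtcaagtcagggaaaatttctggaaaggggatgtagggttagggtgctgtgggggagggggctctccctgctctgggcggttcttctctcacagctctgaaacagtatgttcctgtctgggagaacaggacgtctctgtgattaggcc
Each holds the hexamer once.

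Of the scavenger and pattern receptors, Cd14 binds bacterial lipopolysaccharide, Cd163 takes up haemoglobin complexes, and Mrc1 (CD206) is the macrophage mannose receptor. Cd14 had 2.41, 1.95 and 2.57 CPM in the libraries labelled Grg3Grg4, 3.14, 3.92 and 3.30 CPM in those labelled Grg3, and 3.73, 3.31 and 2.97 CPM in the controls. The libraries labelled Grg3Grg4 lay below all 6 others, with a log2 change of -0.53 (SE 0.20) against control that did not pass (edgeR adjusted p = 0.17). Mrc1 had 48.1, 37.8 and 65.2 CPM in the libraries labelled Grg3Grg4, 50.2, 70.4 and 54.5 CPM in those labelled Grg3, and 58.4, 60.0 and 61.3 CPM in the controls. Cd163 had 5.23 to 7.36 CPM in the libraries labelled Grg3Grg4, 6.10 to 9.74 CPM in those labelled Grg3 and 5.45 to 8.32 CPM in the controls. For Mrc1 and Cd163 the groups overlapped, and the controls were much closer together for Mrc1 than either mutant label.

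Fcer1g and Tyrobp encode adaptors that pass on signals from Fc and other activating receptors, and Fcgr3 encodes an Fc receptor for IgG. Fcer1g had 14.6, 6.42 and 9.75 CPM in the libraries labelled Grg3Grg4, 15.5, 15.3 and 11.97 CPM in those labelled Grg3, and 7.87, 6.97 and 8.73 CPM in the controls. Fcgr3 had 12.7, 6.60 and 9.95 CPM in the libraries labelled Grg3Grg4, 14.7, 16.3 and 13.8 CPM in those labelled Grg3, and 10.8, 8.40 and 8.49 CPM in the controls. For both genes the 3 libraries labelled Grg3 lay above the 3 controls, and those labelled Grg3Grg4 ran from below the lowest control to above the highest. In the libraries labelled Grg3 the log2 changes were 0.86 (SE 0.25) for Fcer1g and 0.69 (SE 0.21) for Fcgr3, and neither passed (edgeR adjusted p = 0.116 and 0.124). Tyrobp had 6.35 to 14.2 CPM in the libraries labelled Grg3Grg4, 10.7 to 14.4 CPM in those labelled Grg3 and 6.89 to 9.68 CPM in the controls, again with the libraries labelled Grg3 above the controls (0.55, SE 0.26; edgeR adjusted p = 0.284). In the libraries labelled Grg3 against control, DESeq2 called 6 of the 32 genes (18.8%, against 8% of all genes), Itgb2 lower and Csf1r, Aif1, Fcer1g, Fcgr3 and Ctss higher.

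Lyz2 encodes lysozyme M, Cybb the catalytic subunit of the phagocyte NADPH oxidase, and Ctss the lysosomal protease cathepsin S. Ctss had 16.9, 9.15 and 13.8 CPM in the libraries labelled Grg3Grg4, 18.51, 23.3 and 19.1 CPM in those labelled Grg3, and 13.6, 10.9 and 13.9 CPM in the controls. The libraries labelled Grg3 lay above all 6 others, and the log2 changes did not pass, at 0.67 (SE 0.20) for the libraries labelled Grg3 against control and -0.62 (SE 0.20) for those labelled Grg3Grg4 against those labelled Grg3 (edgeR adjusted p = 0.124 and 0.176). Lyz2 had 110.4, 26.1 and 33.0 CPM in the libraries labelled Grg3Grg4, 64.3, 59.6 and 55.0 CPM in those labelled Grg3, and 41.6, 25.5 and 39.8 CPM in the controls. The libraries labelled Grg3 stood close together above the controls, while those labelled Grg3Grg4 held 1 library above all others and 2 inside the control range. The log2 changes of Lyz2 against control, 0.67 (SE 0.45) and 0.74 (SE 0.45), did not pass (edgeR adjusted p = 0.45 and 0.402). Cybb had 3.41 to 11.6 CPM in the libraries labelled Grg3Grg4, 6.80 to 7.56 CPM in those labelled Grg3 and 4.79 to 7.26 CPM in the controls, with overlap. The promoter of Ctss (plus strand, chr3:95526536-95526835) is shown for this gene, whose libraries labelled Grg3 lay above all others, with GAGGAA on either strand in capitals.
Ctss: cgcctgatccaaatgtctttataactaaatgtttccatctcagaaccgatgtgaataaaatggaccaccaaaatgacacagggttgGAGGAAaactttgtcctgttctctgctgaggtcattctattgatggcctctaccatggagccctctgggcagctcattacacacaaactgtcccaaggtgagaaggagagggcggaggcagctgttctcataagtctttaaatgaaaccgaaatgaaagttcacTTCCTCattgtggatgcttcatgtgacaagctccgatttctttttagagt
It holds the hexamer 2 times.

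The pan-leukocyte genes Ptprc (CD45), Laptm5, Cd52, Coro1a and Lcp1 are used across myeloid and lymphoid cells, and 0 of the 5 passed in any comparison by edgeR, also at an unadjusted p under 0.05, or by DESeq2. Ptprc had 14.0, 5.41 and 5.75 CPM in the libraries labelled Grg3Grg4, 5.43, 9.23 and 5.92 CPM in those labelled Grg3, and 5.72, 4.31 and 7.26 CPM in the controls. Laptm5, a lysosomal membrane protein, had 43.1, 22.9 and 31.8 CPM in the libraries labelled Grg3Grg4, 34.7, 46.0 and 33.0 CPM in those labelled Grg3, and 30.9, 24.9 and 26.9 CPM in the controls. Coro1a and Lcp1, actin regulators, and Cd52, a surface glycoprotein, were each highest or next to highest in replicate 1 of the libraries labelled Grg3Grg4 and in replicate 2 of those labelled Grg3. For Laptm5 and Cd52 the libraries labelled Grg3 lay above the controls, and for Ptprc, Coro1a and Lcp1 all groups overlapped.

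S100a8 and S100a9 encode the subunits of calprotectin, which neutrophils and monocytes hold in large amounts. S100a8 had 61.3, 6.95 and 11.3 CPM in the libraries labelled Grg3Grg4, 26.6, 6.94 and 15.3 CPM in those labelled Grg3, and 5.74, 2.09 and 21.8 CPM in the controls. S100a9 had 63.3, 8.95 and 10.3 CPM in the libraries labelled Grg3Grg4, 28.8, 6.27 and 16.7 CPM in those labelled Grg3, and 5.47, 1.51 and 22.5 CPM in the controls. All groups overlapped, and the genes followed each other from library to library, with S100a9 at 0.957 to 1.71 times S100a8 per kilobase of exon. The log2 changes against control were 1.43 (SE 0.94) for S100a8 and 1.49 (SE 0.98) for S100a9 in the libraries labelled Grg3Grg4, with edgeR adjusted p of 0.434 and 0.437. They were 0.72 and 0.81 in the libraries labelled Grg3 (edgeR adjusted p = 0.721 and 0.697). The promoters of this pair, S100a8 (plus strand, chr3:90668821-90669120) and S100a9 (minus strand, chr3:90695672-90695971), are shown with capitals for GAGGAA on either strand in S100a8 and for TTGCNNAA in S100a9.
S100a8: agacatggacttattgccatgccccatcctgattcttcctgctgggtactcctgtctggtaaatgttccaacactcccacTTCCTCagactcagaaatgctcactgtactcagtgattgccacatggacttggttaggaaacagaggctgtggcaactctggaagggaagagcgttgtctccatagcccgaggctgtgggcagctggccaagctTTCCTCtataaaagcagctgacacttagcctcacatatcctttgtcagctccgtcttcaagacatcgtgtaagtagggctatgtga
S100a9: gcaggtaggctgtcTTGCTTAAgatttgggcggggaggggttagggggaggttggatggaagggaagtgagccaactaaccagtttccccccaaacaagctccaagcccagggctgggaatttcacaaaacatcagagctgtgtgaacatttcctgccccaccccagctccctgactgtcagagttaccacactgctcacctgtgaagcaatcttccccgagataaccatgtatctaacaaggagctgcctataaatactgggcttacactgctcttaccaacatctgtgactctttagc
S100a8 holds the hexamer 2 times and S100a9 does not hold it in this window.

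The heat map shows that libraries of the same label differed widely. The median of the 32 genes, as log2 over the control mean, was 0.47, -0.41 and 0.09 in the libraries labelled Grg3Grg4, 0.16, 0.59 and 0.23 in those labelled Grg3, and 0.09, -0.17 and 0.04 in the controls. Replicate 2 of the libraries labelled Grg3Grg4 held the lowest value of all 9 libraries for 21 genes, while replicate 2 of those labelled Grg3 held the highest for 15 and replicate 1 of those labelled Grg3Grg4 for 10. Within a label, replicate 1 of the libraries labelled Grg3Grg4 was the highest of its 3 for 22 genes and replicate 2 the lowest for 29. The coefficient of variation between the 3 libraries had a median over the 32 genes of 30.2% in those labelled Grg3Grg4, 20.1% in those labelled Grg3 and 16.2% in the controls. The libraries labelled Grg3 had the highest group mean for 22 genes and the controls the lowest for 22.

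**Figure D4:**
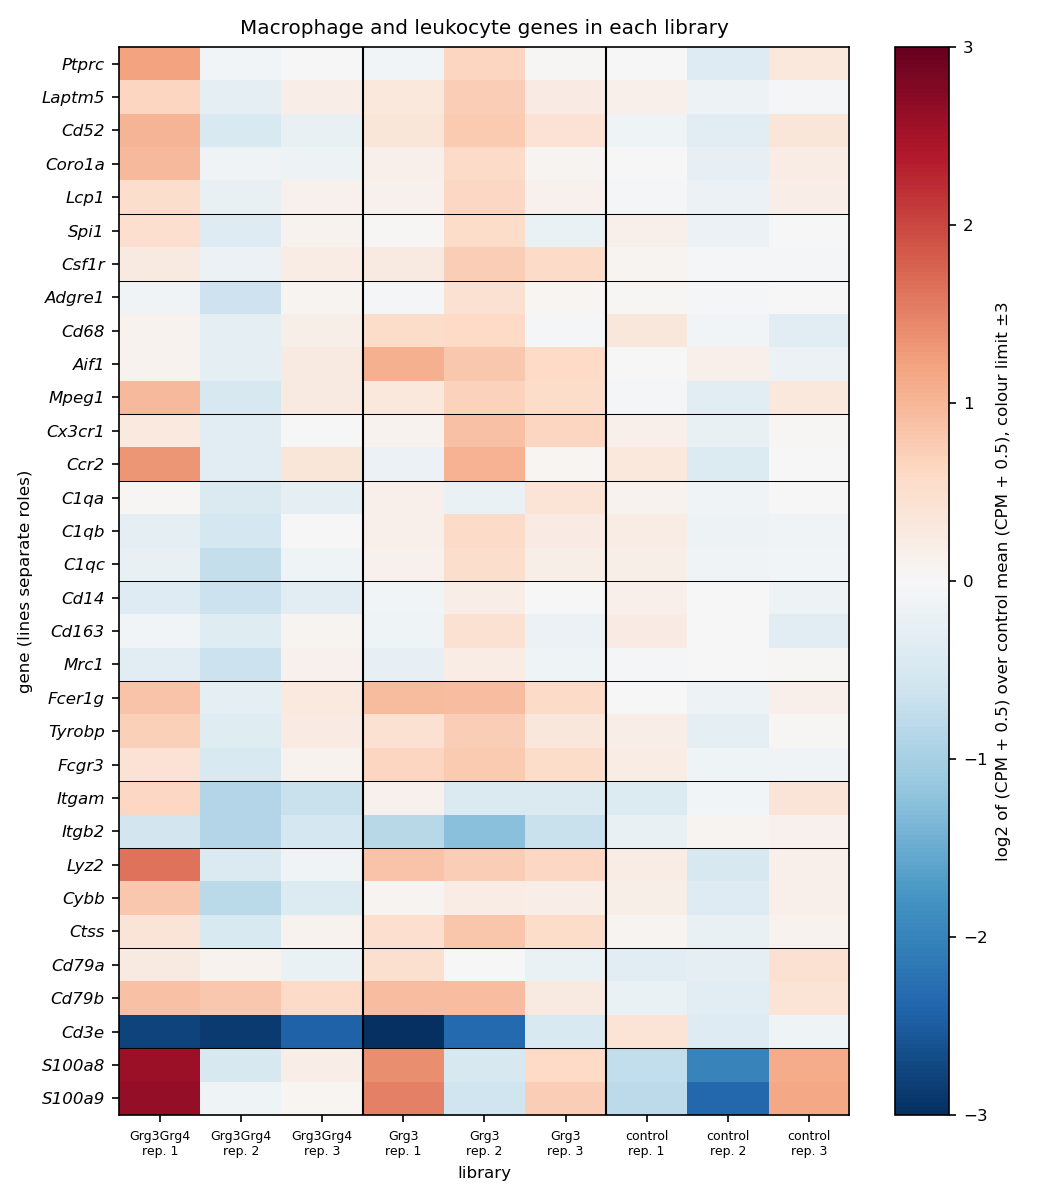
Log2 of the level of each of the 32 genes (rows, in the order of their roles) in each of the 9 libraries (columns) over the control mean, with 0.5 CPM added to both. Red is above and blue below the control mean, and colours stop at 3 in either direction. Replicate 1 of the libraries labelled Grg3Grg4 and replicate 2 of those labelled Grg3 are red for most genes, Itgb2 and Cd3e are blue in the 6 libraries labelled mutant, and S100a8 and S100a9 differ between replicates of every label.

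Other cell types also differed between the libraries, not all in the order of the 32 genes. The summed level of 13 erythroid genes was highest in replicate 1 of each mutant label. It was 3453 CPM in that of the libraries labelled Grg3Grg4 and 3407 CPM in that of those labelled Grg3, against 1691 to 2592 CPM in the others. The summed level of 16 neutrophil genes was 135, 20.9 and 30.5 CPM in the libraries labelled Grg3Grg4, 77.6, 18.2 and 32.2 CPM in those labelled Grg3, and 15.9, 6.55 and 44.3 CPM in the controls, and in each label the library highest in it was also highest in S100a8 and S100a9. The summed level of 34 acinar enzyme genes was 301861, 271022 and 310380 CPM in the libraries labelled Grg3Grg4, 323631, 221540 and 422858 CPM in those labelled Grg3, and 413088, 477285 and 438814 CPM in the controls. Replicate 2 of the libraries labelled Grg3, highest for 15 of the 32 genes, had the lowest acinar sum of the 9. It also had the highest sums of 9 endothelium and 8 mesenchyme genes. These were 1007 and 12801 CPM, against 677 to 865 and 8034 to 10163 CPM in the other libraries. The same library was lowest in Itgb2, at 18.4 CPM. Replicate 3 of the libraries labelled Grg3 lay above control replicate 1 in the acinar sum but below it in Itgb2 (28.1 and 38.2 CPM). With the acinar enzyme genes left out of the scaling, the median log2 changes of the 32 genes against control were 0.09 and 0.37.

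The summed level of 12 hepatocyte genes was 850.5, 1019 and 2058 CPM in the libraries labelled Grg3Grg4, 1817, 366 and 807 CPM in those labelled Grg3, and 215, 231 and 221 CPM in the controls. By edgeR 9 of the 12 were called higher in each mutant label (75%, against 2.14% and 1.4% of all genes in either direction). In the libraries labelled Grg3Grg4 and those labelled Grg3, DESeq2 called 11 and 12 of them higher, and limma's voom 5 and 2. Of the 4 tested genes of liver macrophages (Kupffer cells), 3 were higher without overlap with the controls in each mutant label (75%, against 14.9% and 12.6% of all genes). By edgeR 1 of the 4 was called in the libraries labelled Grg3 (25%, against 1.4% of all genes). This was the scavenger receptor Marco, higher by 2.46 (SE 0.40; edgeR adjusted p = 0.0252). The call was lost without control replicate 2 or 3 or without replicate 1 of the libraries labelled Grg3, where adjusted p reached 0.132. Marco had 0.775, 0.602 and 0.673 CPM in the libraries labelled Grg3Grg4, 1.52, 1.17 and 0.729 CPM in those labelled Grg3, and 0.271, 0.209 and 0.132 CPM in the controls, so that all 6 libraries labelled mutant lay above the controls. Clec4f, the defining marker of Kupffer cells, had 10, 6 and 31 counts in the libraries labelled Grg3Grg4, 17, 3 and 9 in those labelled Grg3, and 1, 0 and 0 in the controls. DESeq2 and limma's voom called Clec4f higher in the libraries labelled Grg3Grg4 against control, and edgeR did not. The summed level of the 5 listed Kupffer cell genes did not separate the labels, at 53.2, 30.8 and 25.5 CPM in the libraries labelled Grg3Grg4, 38.6, 27.1 and 29.5 CPM in those labelled Grg3, and 26.8, 32.8 and 43.7 CPM in the controls. Most of that sum was the iron exporter gene Slc40a1, whose log2 changes against control were 0.04 and -0.19 (edgeR adjusted p = 0.957 and 0.758). The summed level of 9 muscle genes was 424, 2212 and 217 CPM in the libraries labelled Grg3Grg4, 310, 833 and 357.5 CPM in those labelled Grg3, and 177, 137 and 123 CPM in the controls. It was highest in the library that was lowest for most of the 32 genes, and next highest in the library that was highest for 15 of them. The part of these tissues in the values of the 32 genes was not tested. The plot of summed levels sets them side by side.

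**Figure D5:**
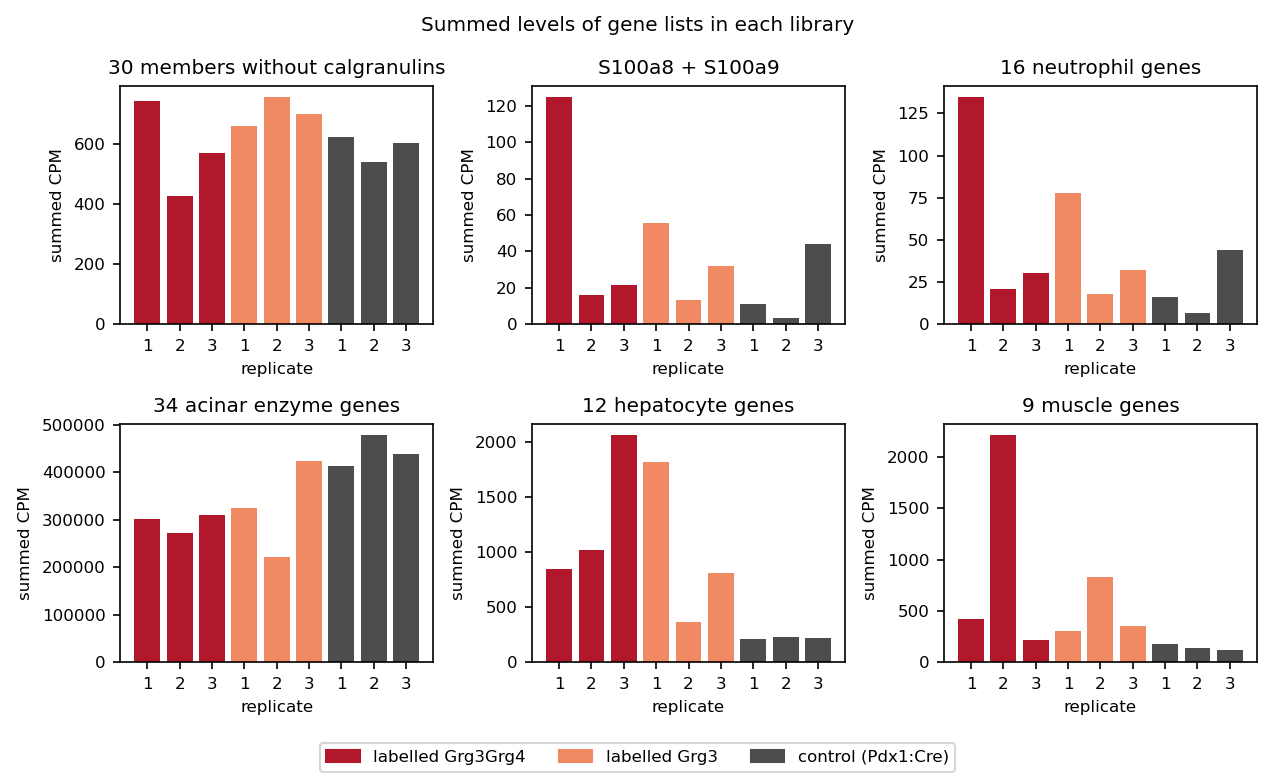
Summed CPM of 6 gene groups in each library (bars from 0, replicates 1 to 3 of the libraries labelled Grg3Grg4, then Grg3, then control). S100a8 and S100a9 follow the neutrophil genes, the acinar sum is lowest in replicate 2 of the libraries labelled Grg3 at 221540 CPM, and the muscle sum is highest in replicate 2 of those labelled Grg3Grg4 at 2212 CPM.

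A separate list of 32 other macrophage and monocyte genes gave 1 call by edgeR in the libraries labelled Grg3Grg4 against control (3.12%, against 2.14% of all genes). It gave 0 in those labelled Grg3, where 1.4% of all genes were called. The median log2 changes were 0.09 and 0.42, against 0.01 and 0.02 over all genes. In the libraries labelled Grg3, 30 of the 32 were above 0 (93.8%, against 52.5% of all genes). There 11 did not overlap the controls, all higher (34.4%, against 12.6% of all genes). In the libraries labelled Grg3, 5 of the 32 passed at an unadjusted p under 0.05 (15.6%, against 19.1% of all genes) and DESeq2 called 2, Ms4a7 and Cyba, both higher (6.25%, against 8% of all genes). The gene called was Csf2ra, the alpha chain of the receptor for GM-CSF, a growth factor of macrophages and granulocytes. Csf2ra had 38.6, 38.8 and 38.2 CPM in the libraries labelled Grg3Grg4, 25.4, 28.2 and 27.1 CPM in those labelled Grg3, and 27.4, 25.3 and 25.6 CPM in the controls. The libraries labelled Grg3Grg4 lay well above all 6 others, which overlapped. Csf2ra rose by 0.56 (SE 0.07) on the log2 scale against control (edgeR adjusted p = 0.00824), a call lost without control replicate 2 or 3 and with embryo sex as a term, where adjusted p reached 0.068.

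The 7 genes of MHC class II presentation, which load peptides in macrophages, dendritic cells and B cells, were all above 0 in each mutant label against control (100%, against 51.9% and 52.5% of all genes). By edgeR 1, H2-DMa, was called in the libraries labelled Grg3 (14.3%, against 1.4% of all genes). It was higher by 1.54 (SE 0.22; edgeR adjusted p = 0.0129). The call was lost without control replicate 2 or 3 or without replicate 1 of the libraries labelled Grg3, where adjusted p reached 0.085. H2-DMa had 2.54, 2.13 and 2.71 CPM in the libraries labelled Grg3Grg4, 4.91, 4.64 and 3.42 CPM in those labelled Grg3, and 1.29, 1.63 and 1.54 CPM in the controls. The 3 groups did not overlap. For the libraries labelled Grg3Grg4, the log2 changes of 0.72 against control and -0.81 against those labelled Grg3 did not pass (edgeR adjusted p = 0.106 and 0.119). The annotated span of H2-DMa overlaps Brd2 and other genes, so its reads are uncertain. Of 19 T and NK cell genes 13 were tested, of 13 B cell genes 10 and of 16 neutrophil genes 14, and by edgeR 0 passed in any of the 4 contrasts. At an unadjusted p under 0.05, the counts over the contrasts were 2 to 4 for T and NK cell genes, 1 to 4 for B cell genes and 0 to 2 for neutrophil genes. As shares of the genes tested these were 15.4% to 30.8%, 10% to 40% and 0% to 14.3%, against 17.3% to 20.2% of all genes. DESeq2 called Cd4 and Il7r higher in the libraries labelled Grg3 (15.4% of the T and NK cell genes tested, against 8% of all genes). Replicate 2 of these libraries held 5.15 CPM of Cd4 and 6.16 CPM of Il7r. Ebf1 was called lower by DESeq2 in the libraries labelled Grg3Grg4 (10% of the B cell genes tested, against 8.16% of all genes).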

How the data were processed

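Whole pancreas RNA of 9 embryos was sequenced. Per the labels' protocols, total RNA was extracted with a Qiagen kit and libraries followed a standard Illumina procedure. The authors deposited raw read counts per gene, 1 file per library. Tools named by the submitters' processing notes are HTSeq, HISAT2, Trim Galore, FastQC, DESeq2 and bedtools, with GRCm38 and mm10 as builds. The sources used here give no versions, annotation or strand setting. The 5 lines of each file that name no gene held 28.5% to 33.2% of reads and were left out. Replicates differed by more than counting noise.

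From the counts, edgeR 4.0.16 (R 4.3.3) was run on all 9 libraries in 1 quasi-likelihood fit with TMM scaling and filterByExpr (minimum count 10, minimum total 15), 2-sided, with Benjamini-Hochberg adjustment over 19166 genes and a threshold of 0.05. CPM follow TMM scaling. Groups are those of the labels. The test was also run on simulated counts drawn gene by gene. These cannot show how it behaves where many genes of a library shift together. Positions and exon lengths are from GENCODE M21 (GRCm38), promoters from RefSeq (GRCm38.p6). The listed genes, the other lists and the rule for naming genes (all 32, and from other lists those called, defining markers and up to 3 of highest level) were chosen with earlier results of these data known. Trac, Cd4, Il7r, Ebf1, Ccl2, Ms4a7, Cyba, Pf4, Mcpt4, Slc40a1, Nr2f2 and Itgax were named after their values were seen. Alternatives were other scalings and filters, a replicate block, DESeq2 1.42.0, limma's voom 3.58.1, fewer libraries and, added after seeing the data, embryo sex.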

Additional observations from a re-analysis of the deposited data

Results flagged for a closer look

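Among the genes of the immune lists, edgeR called 1 in the direct test between the mutant labels, where it called 0.188% of all genes. This was 3.12% of the list of other macrophage and monocyte genes. Csf2ra (chromosome 19, 61223957 to 61228429, GRCm38) was higher by 0.52 (SE 0.07) on the log2 scale in the libraries labelled Grg3Grg4 than in those labelled Grg3 (edgeR adjusted p = 0.0311), in 3 of 3 libraries. Against control its change was 0.56 in the libraries labelled Grg3Grg4 and 0.04 in those labelled Grg3. The call between the mutant labels was kept in 8 of 18 alternatives, with adjusted p up to 0.15 and log2 changes of 0.48 to 0.55. The libraries labelled Grg3Grg4 were all male, and with embryo sex as a term the call was lost. Tle4 lies on the same chromosome, at 14448150 to 14598051. None of the 32 macrophage and leukocyte genes passed this test by edgeR with the filter on low counts, while C1qc passed without it (edgeR adjusted p = 0.0471). Besides Csf2ra, DESeq2 called Aif1, C1qb, C1qc, Ms4a7, H2-DMa and Pf4 lower and Mcpt4 higher in the libraries labelled Grg3Grg4 than in those labelled Grg3. It called 5.81% of all genes there. Its calls were 9.38% of the 32 genes, 6.25% of the other macrophage and monocyte genes and 14.3% of the MHC class II genes. They were 16.7% of the megakaryocyte and platelet genes and 11.1% of the mast cell, basophil and eosinophil genes. In the T and NK cell, B cell and neutrophil lists it called 0.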

How the results depend on the processing

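No result reversed its direction while called. Counts are given for the libraries labelled Grg3Grg4 against control, those labelled Grg3 against control, Grg3Grg4 against Grg3, and the 6 libraries labelled mutant against control, in this order. The 32 genes gave 0, 1, 0 and 1 calls in the reported fit and all genes 410, 268, 36 and 397. Without a filter on low counts the 32 gave 2, 3, 1 and 2 and all genes 930, 586, 228 and 748. DESeq2 gave 2, 6, 3 and 3, with 1553, 1463, 1019 and 1585 over all genes. Limma's voom gave 2 calls in the first and 2 in the last, with 1033, 421 and 1011 over all genes in the first, second and last. With only the libraries compared, the 32 gave 2 and 3 against control, and all genes 750 in the first and 10 in the third. The stricter filter gave 75 genes in the third. With embryo sex as a term the second and last counts of the 32 were 0, and all genes gave 30, 169, 4 and 141. Leaving out 1 library gave 0 to 1, 0 to 5, 0 to 0 and 0 to 2 of the 32 and 50 to 825, 32 to 327, 6 to 49 and 62 to 600 of all genes. It also moved the median of the 32 between -0.14 and 0.28, 0.26 and 0.46, -0.58 and -0.0347, and 0.12 and 0.39. The lowest counts of all genes came without control replicate 3, except for the third, which came without replicate 1 of the libraries labelled Grg3. Samples with the same replicate number did not deviate together (correlations of -0.09 to 0.09, 0 of 9 over 0.1). A replicate block left 254, 167 and 11 genes in the first 3 comparisons and changed no call of the 32. The cause of these differences was not tested. For single genes among the 32, 34 values under an alternative gained a call and 8 lost one. With 3 embryos per label, changes of low genes such as Cd79b, Aif1 and Cd3e rest on few counts, and reads that align to several places (15.8% to 20.8%) are not in the gene counts.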

Other observations

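Mast cells, tissue cells that carry the high-affinity receptor for IgE, share the adaptor Fcer1g with macrophages. Of 9 tested genes of mast cells, basophils and eosinophils, edgeR called 1 in the libraries labelled Grg3Grg4 against control (11.1%, against 2.14% of all genes). This was Ms4a2, the beta chain of that receptor, which rose by 2.51 (SE 0.51) on the log2 scale (edgeR adjusted p = 0.0381). The call was kept in 7 of 17 alternatives, with adjusted p up to 0.173. Ms4a2 had 18, 60 and 19 counts in the libraries labelled Grg3Grg4, 18, 27 and 18 in those labelled Grg3, and 5, 4 and 4 in the controls. All 6 libraries labelled mutant lay above the controls, at low counts. Its change in the libraries labelled Grg3 was 1.92 (SE 0.51) and did not pass (edgeR adjusted p = 0.0954). The list did not move as 1: 6 of the 9 genes were above 0 in the libraries labelled Grg3Grg4 and 3 in those labelled Grg3. The summed level of its 11 genes overlapped between labels. It was 196, 120 and 145 CPM in the libraries labelled Grg3Grg4, 141, 124.7 and 124.8 CPM in those labelled Grg3, and 155, 134 and 141 CPM in the controls.

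The homeobox gene Tlx1, which marks the stroma of the developing spleen, had 10.3, 1.95 and 5.47 CPM in the libraries labelled Grg3Grg4, 4.20, 2.62 and 3.16 CPM in those labelled Grg3, and 3.57, 3.50 and 5.59 CPM in the controls. It was highest in replicate 1 of the libraries labelled Grg3Grg4, which was also highest in Ptprc, Lyz2, S100a8 and S100a9, and the groups overlapped. The summed level of the 5 spleen stroma genes had another order, at 115, 129.8 and 104 CPM in the libraries labelled Grg3Grg4, 88.7, 112 and 89.5 CPM in those labelled Grg3, and 96.0, 77.7 and 77.3 CPM in the controls. It was highest in replicate 2 of the libraries labelled Grg3Grg4, which held the lowest value of the 9 libraries for 21 of the 32 genes, and most of it was Nr2f2. Whether spleen tissue was present was not tested.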
